A study of Mus musculus with 18 samples.

Results

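Mouse kidney was profiled here for 7 glycolytic enzymes: Hk1, Aldoa, Pgk1, Pgam1, Pkm, Ldha and Ldhb. They were taken as the genes whose single annotated symbol on the array was one of these names. They had 8 of the 16128 probes, 1 each except for Pkm with 2, and are 7 of the 4109 named genes that were tested. CD1 mice entered the study at postnatal day 2 and were kept for 1, 2 or 4 weeks in normoxia, in constant hypoxia at 11% oxygen, or in intermittent hypoxia with oxygen switched between 21% and 11% every 4 min. Each of the 18 arrays, 2 (A and B) for each of the 9 groups, carried Cy5-labelled kidney cDNA of a male mouse and Cy3-labelled kidney cDNA of a female mouse of the same group, with the dyes never swapped. No mutant allele or drug is named in the labels, and all animals were of the same stock.

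Every value below is a log2 ratio between these channels, centred on the median of its array. By the labels, it therefore compares the sexes (and the dyes) within a group, relative to the typical transcript, and it holds no expression level. The labels do not say which channel is divided by which, so "higher" and "lower" refer to the ratio and not to a sex. A shift that hypoxia caused equally in both sexes would leave the ratio where it was. In whole kidney, fewer cells of a type and less RNA per cell cannot be told apart. Sex and dye cannot be told apart either. All mice entered at postnatal day 2, so a change with duration in normoxia is a change with age. Within a hypoxia regime, age and length of exposure cannot be told apart.

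Glycolysis splits glucose into pyruvate in the cytosol and yields ATP without oxygen; lactate dehydrogenase then turns pyruvate into lactate and regenerates the NAD+ that the pathway consumes. The transcription factor HIF-1, which accumulates when oxygen is low, is known to raise transcription of many glycolytic genes, Pgk1 and Ldha among them. In the kidney the medulla relies on glycolysis, while the proximal tubules of the cortex burn fatty acids, take up lactate and make glucose. HIF binds a short core, ACGTG or GCGTG.

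The upstream sequences of the genes the results turn on, Pgk1, Ldha and Ldhb, are shown because the first pair are classical HIF targets and the third is the other subunit of the same dehydrogenase. They are the 250 bases before the first listed transcription start in RefSeq on GRCm38.p6 (matched for 7 of 7 genes), 5′ to 3′ on the gene's strand, with ACGTG or GCGTG on either strand in capitals. A run of capitals longer than the core is a pair of overlapping matches, counted as 1 site. Pgk1 lies on the X chromosome (chrX:106186850-106187099, plus strand), Ldha on chromosome 7 (chr7:46845554-46845803, plus strand) and Ldhb on chromosome 6 (chr6:142507958-142508207, minus strand).
Pgk1: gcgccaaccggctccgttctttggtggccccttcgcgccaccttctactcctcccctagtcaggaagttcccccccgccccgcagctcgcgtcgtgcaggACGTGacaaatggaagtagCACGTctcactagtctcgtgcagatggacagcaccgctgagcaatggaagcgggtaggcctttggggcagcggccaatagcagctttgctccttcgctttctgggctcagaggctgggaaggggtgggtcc
Ldha: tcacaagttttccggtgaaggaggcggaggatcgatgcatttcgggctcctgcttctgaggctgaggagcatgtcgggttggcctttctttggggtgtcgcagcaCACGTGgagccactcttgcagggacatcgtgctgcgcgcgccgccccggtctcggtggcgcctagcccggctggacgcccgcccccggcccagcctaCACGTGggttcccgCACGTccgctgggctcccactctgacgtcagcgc
Ldhb: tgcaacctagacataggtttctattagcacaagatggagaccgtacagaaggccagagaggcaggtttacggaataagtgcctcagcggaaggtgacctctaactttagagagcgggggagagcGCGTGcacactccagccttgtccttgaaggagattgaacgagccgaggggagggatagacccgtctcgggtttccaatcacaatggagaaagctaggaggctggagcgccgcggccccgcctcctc
The Ldha window held 3 ACGTG sites, the Pgk1 window 2, and the Ldhb window none but 1 GCGTG site. The Pgam1 window held 1 ACGTG and 2 GCGTG sites, and the first listed windows of Hk1, Aldoa and Pkm held neither. Windows of other listed starts of these genes did: 2 GCGTG sites for Hk1, and 1 ACGTG site each for Aldoa and Pkm. In the first listed windows, 4 of 7 enzymes held either core, where 38.6% of genes did. Over all listed starts, 7 of 7 enzymes did, where 41.5% of genes did. The enzymes had 12 windows in all, and a gene with more windows has more chances to hold a core. Of 27025 windows of the same length, 16.6% held ACGTG, 38.6% held either core, and 4.75% held at least 3 sites of either. A match describes these letters only.

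Some arrays stood apart, and this bears on all that follows. Before centring, the 6 constant hypoxia arrays had medians between -1.17 and -0.15 and values for 81.8% to 88.8% of probes, while the other 12 had medians between -0.07 and 0.09 and values for 41.0% to 67.9%. Centring removes the shift in the medians but not any other difference in how the ratios were made. Such a difference was not tested and cannot be told apart from constant hypoxia itself. Ratios were spread most widely on constant hypoxia 4 weeks A (SD 0.89) and intermittent hypoxia 2 weeks B (SD 0.68). Arrays A and B of a group correlated across features at 0.16 to 0.63. Eif2s3y is a Y-linked gene and so belongs to the male channel, yet its ratio was not steady: it lay below -1 on 4 arrays, above 1 on 3 and between those on 11. Whether the ratio runs in the same direction on every array was not tested. Group means and differences below take it that it does, and would mix directions otherwise. A label of intermittent hypoxia 2 weeks A and one of constant hypoxia 4 weeks A disagree with the title about the duration. As only ratios were used, the kidney's own markers could not be checked by level.

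No enzyme passed the test in any comparison. Across 20 comparisons (each condition's mean ratio against 0, differences between conditions overall and at each duration, and changes with duration), 0 of the 140 enzyme values had a Benjamini-Hochberg adjusted p under 0.05 in limma. The smallest was 0.0609. Without adjustment 17 had a p under 0.05 (12.1% of the 140), where 10.7% of the values of all features did, and the unmoderated test of the same fit gave 0 with adjustment and 18 without. The values below are therefore descriptions with their errors. Among them, the largest differences for their error were those of Pgk1: its change with duration in normoxia, its difference between intermittent hypoxia and normoxia at 4 weeks, and the difference between these regimes in its change. Each of these uses the same normoxia arrays of 4 weeks, and the last includes the first, so they are not independent.

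Hk1, the hexokinase that traps glucose in the cell as its phosphate, varied least. Its ratio ran from -0.21 to 0.38 over the 18 arrays and was above 0 on 16 of them. In normoxia the lowest was -0.21, the median 0.08 and the highest 0.38. In constant hypoxia these were -0.14, 0.15 and 0.30. In intermittent hypoxia they were 0.13, 0.22 and 0.32, and all 6 arrays were above 0, so the conditions overlapped throughout. Neighbouring groups in the order of the Hk1 means, from normoxia 4 weeks at 0.24 down to normoxia 1 week at -0.08, overlapped in every case.

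Aldoa, the aldolase that cleaves fructose 1,6-bisphosphate, had values on 16 arrays. In normoxia they ran from -0.78 (2 weeks B) through a median of 0.16 to 0.37. In constant hypoxia the 4 values were -0.20 at 1 week, 0.43 and 0.23 at 2 weeks and 0.55 at 4 weeks. In intermittent hypoxia they were 0.42 and 0.47 at 1 week, 0.06 and -0.31 at 2 weeks, and 0.15 and -0.15 at 4 weeks. The conditions overlapped. The low value of normoxia 2 weeks B stood away from the other 5 of that condition, which lay between -0.02 and 0.37, and it enters the 2-week difference between constant hypoxia and normoxia of 0.65 (SE 0.29, limma adjusted p = 0.477), which was 0.18 without that array.

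Pgk1, the phosphoglycerate kinase that makes the first ATP of the pathway, had values on all 18 arrays and the clearest pattern of the 7. In normoxia the ratio was -0.22 and -0.67 at 1 week, -0.60 and -0.74 at 2 weeks, and 0.47 and 0.75 at 4 weeks. In constant hypoxia it was -0.01 and -0.03, then 0.26 and -0.14, then 0.30 and 0.50. In intermittent hypoxia it was -0.14 and 0.16, then 0.01 and 0.15, then -0.41 and -0.31. Normoxia thus held both the highest and the lowest Pgk1 ratios of the series, and the 4-week ratios were above 0 on all 4 normoxia and constant hypoxia arrays and below 0 on both intermittent hypoxia arrays.

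Ordered by mean, the Pgk1 groups ran from normoxia 4 weeks (0.61 ± 0.20, SD, n = 2) and constant hypoxia 4 weeks (0.40 ± 0.14) down to normoxia 1 week (-0.44 ± 0.32) and normoxia 2 weeks (-0.67 ± 0.10). Between these lay intermittent hypoxia 2 weeks, constant hypoxia 2 weeks, intermittent hypoxia 1 week and constant hypoxia 1 week, with means from 0.08 to -0.02, and then intermittent hypoxia 4 weeks (-0.36 ± 0.07). Gaps between neighbours without overlap came after constant hypoxia 4 weeks and before intermittent hypoxia 4 weeks. The other neighbours overlapped.

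Pgam1, the mutase that moves the phosphate of 3-phosphoglycerate, had values on 16 arrays. In constant hypoxia they were -0.06 and 0.50 at 1 week, -0.44 and -0.25 at 2 weeks, and 0.62 and 0.56 at 4 weeks. Intermittent hypoxia gave 0.24 and -0.12 at 1 week, -0.02 at 2 weeks on 1 array, and -0.17 and -0.14 at 4 weeks. In normoxia the 5 values ran from -0.24 through -0.11 to 0.22. The 4-week constant hypoxia arrays were the highest for Pgam1, and the 2-week arrays of the same condition included its lowest.

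Pkm, the pyruvate kinase whose M1 and M2 forms come from alternative splicing, had 2 probes, which correlated at 0.56 over the 16 arrays both measured. They differed by a median of 0.10 and by 0.56 at most (normoxia 1 week A), and had the same sign on 11 of the 16. Which form either probe detects is not given in the files. Their average ran from -0.24 to 0.41 over 17 arrays. The medians were 0.21 in normoxia, -0.00 in constant hypoxia and 0.20 in intermittent hypoxia, with ranges that overlapped.

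Ldha, the subunit of lactate dehydrogenase that predominates in glycolytic tissues, had the widest range of the 7, from -0.90 to 1.10 over 17 arrays. In normoxia it was 0.05 and -0.09 at 1 week, 0.39 and -0.50 at 2 weeks, and 0.12 and 0.49 at 4 weeks. In constant hypoxia it was -0.10 and 0.23, then 0.55 and 0.03, then 1.01 and 0.12. In intermittent hypoxia it was 0.29 and 0.45 at 1 week, 1.10 on the only 2-week array with a value (B), and -0.48 and -0.90 at 4 weeks. Both extremes of Ldha lay in intermittent hypoxia, and both 4-week arrays there were below those of the other conditions at 4 weeks. The 1.10 came from an array of unusually wide spread. It fell to 0.07 after a running median over neighbouring probes was subtracted from each array. The highest Ldha value was then 0.58, on constant hypoxia 4 weeks A. Among the enzymes' probes, that of Ldha followed this running median most closely (r = 0.72).

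Ldhb, the subunit that predominates in oxidative tissues such as heart, had the lowest ratios of the 7 and was below 0 on 12 of 17 arrays. In normoxia it was -0.45 and -0.65 at 1 week, -0.69 and -1.47 at 2 weeks, and -0.10 and 0.40 at 4 weeks. In constant hypoxia it was -0.62 and 0.00 at 1 week, -0.44 and -0.40 at 2 weeks, and 0.08 at 4 weeks on 1 array. In intermittent hypoxia it was -0.07 and 0.14, then -0.12 and -0.89, then -0.38 and 0.04. In normoxia the 4-week Ldhb values were above all those at 1 and 2 weeks, as they were for Pgk1.

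**Figure D1:**
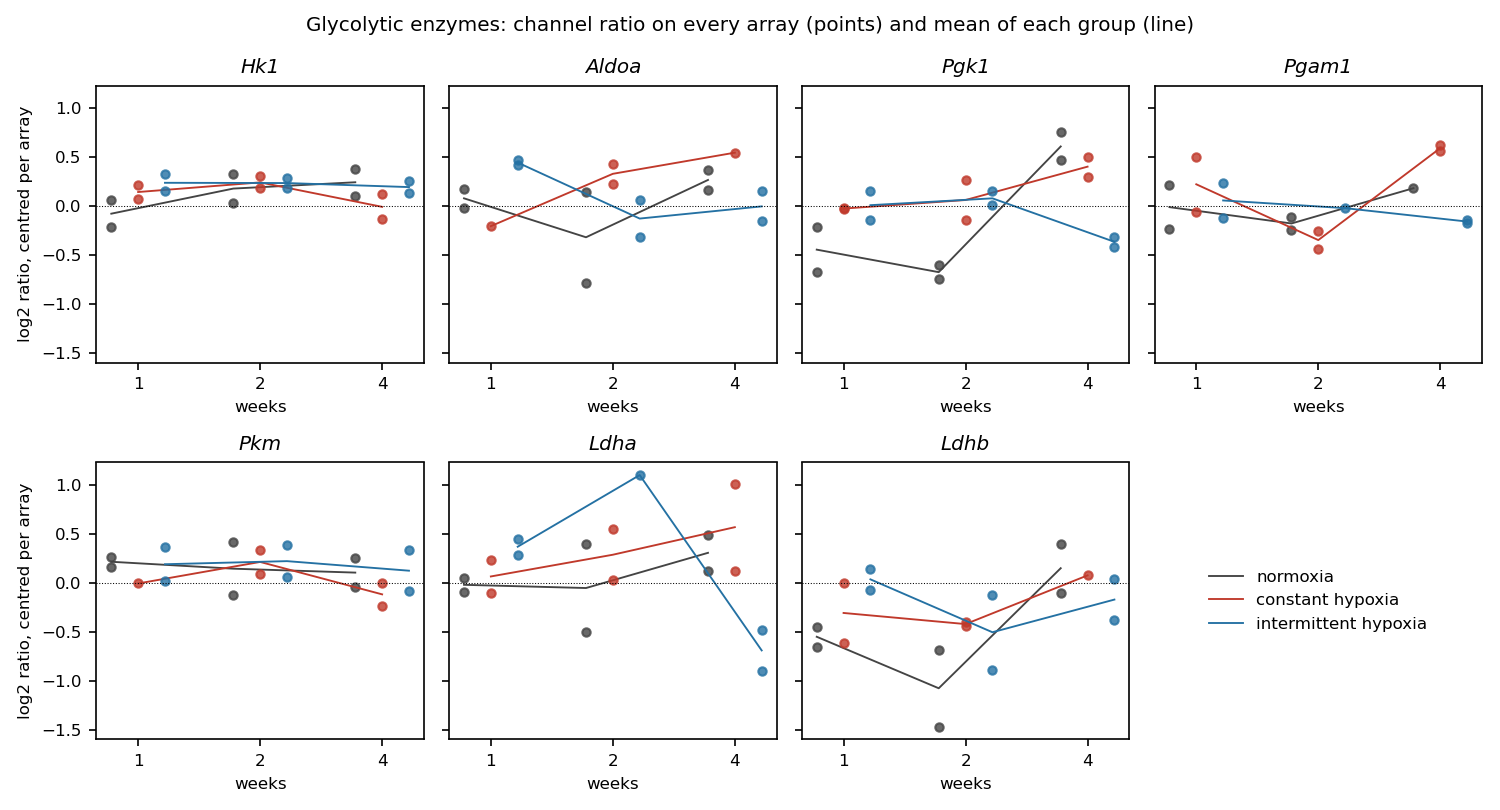
Centred log2 channel ratio (vertical axis) of each enzyme at 1, 2 and 4 weeks (horizontal axis, evenly spaced categories); each point is 1 array, lines join group means, and colours mark the condition. Pgk1 reached 0.47 and 0.75 in normoxia at 4 weeks against -0.41 and -0.31 in intermittent hypoxia, and Hk1 stayed between -0.21 and 0.38.

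Averaged over durations, the mean normoxia ratio was farthest from 0 for Ldhb, at -0.49 (SE 0.14, limma adjusted p = 0.0609, the smallest of the 140). The other 6 lay between -0.17 (Pgk1) and 0.15 (Pkm). None of the 7 passed, where 3.53% of the 5751 features did. In constant hypoxia, where 18.3% passed, the enzymes ran from -0.22 (Ldhb) to 0.31 (Ldha, SE 0.14, limma adjusted p = 0.136). In intermittent hypoxia, where 5.79% passed, they ran from -0.21 (Ldhb) to 0.26 (Ldha), and Hk1 was at 0.22 (SE 0.09, limma adjusted p = 0.126). Ldhb was thus the lowest of the 7 in each condition. The Ldhb value in normoxia passed when one of several arrays of other groups was left out (limma adjusted p = 0.0298 without constant hypoxia 4 weeks A or without B, and 0.0147 to 0.211 over the settings on centred ratios). Where the array left out is of another group, only the error changes, not the value. The mean of Ldha in constant hypoxia was 0.45 (limma adjusted p = 0.0266) without 4 weeks B and 0.16 (limma adjusted p = 0.503) without 4 weeks A, with adjusted p from 0.0266 to 0.862 over the settings on centred ratios. As deposited, before centring, the constant hypoxia means of 6 of the 7 enzymes turned negative, from -0.48 (Ldha) to -0.75 (Pkm), Ldhb was at -0.98, and all 7 were called by limma.

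No enzyme passed for constant hypoxia against normoxia when durations were averaged. The difference was positive for 6 of the 7, with a median of 0.21, where 43.1% of all features were positive and the median of all was -0.04. It was 0.32 for Pgk1 (95% interval 0.03 to 0.60, limma adjusted p = 0.647), 0.27 for Ldhb, 0.23 for Ldha, 0.21 for Aldoa, 0.16 for Pgam1, 0.01 for Hk1 and -0.12 for Pkm. Without normoxia 2 weeks B the median was 0.08 and 5 of the 7 were positive, with 0.08 for Ldha, 0.06 for Aldoa and -0.04 for Hk1. Limma with Benjamini-Hochberg adjustment called 0.00% of all features, as did the unmoderated test, and without adjustment 7.53% (433) had a p under 0.05. On the ratios as deposited, before centring, the difference had the other sign for Pgk1 (-0.45), Ldha (-0.54), Aldoa (-0.52), Pgam1 (-0.63) and Hk1 (-0.76), and 6 of the 7 enzymes were called beside 5570 of the 5751 features. So the sign for these 5 rests on measuring each array from its own median.

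For intermittent hypoxia minus normoxia the averaged difference lay between -0.04 (Pgam1) and 0.28 (Ldhb, 95% interval -0.13 to 0.69), with a median of 0.10. Limma called 0.00% of all features, as did the unmoderated test, and without adjustment 4.12% (237) had a p under 0.05. These hypoxia comparisons share the same 6 normoxia arrays. Intermittent against constant hypoxia, which called 0.0348% of features, gave differences from -0.24 (Pgk1, 95% interval -0.52 to 0.05) to 0.15 (Pkm). On the deposited ratios that difference had the other sign for Pgk1 (0.51), Ldha (0.68), Aldoa (0.59) and Pgam1 (0.57), and all 7 enzymes were called. In none of these averaged comparisons did all centred values of an enzyme in one condition lie beyond all of those in the other (0 of 3 enzymes with every value for constant hypoxia against normoxia, 0 of 5 for intermittent hypoxia against normoxia and 0 of 2 for the hypoxia regimes), where 0.0772%, 0.121% and 0.294% of features did.

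**Figure D2:**
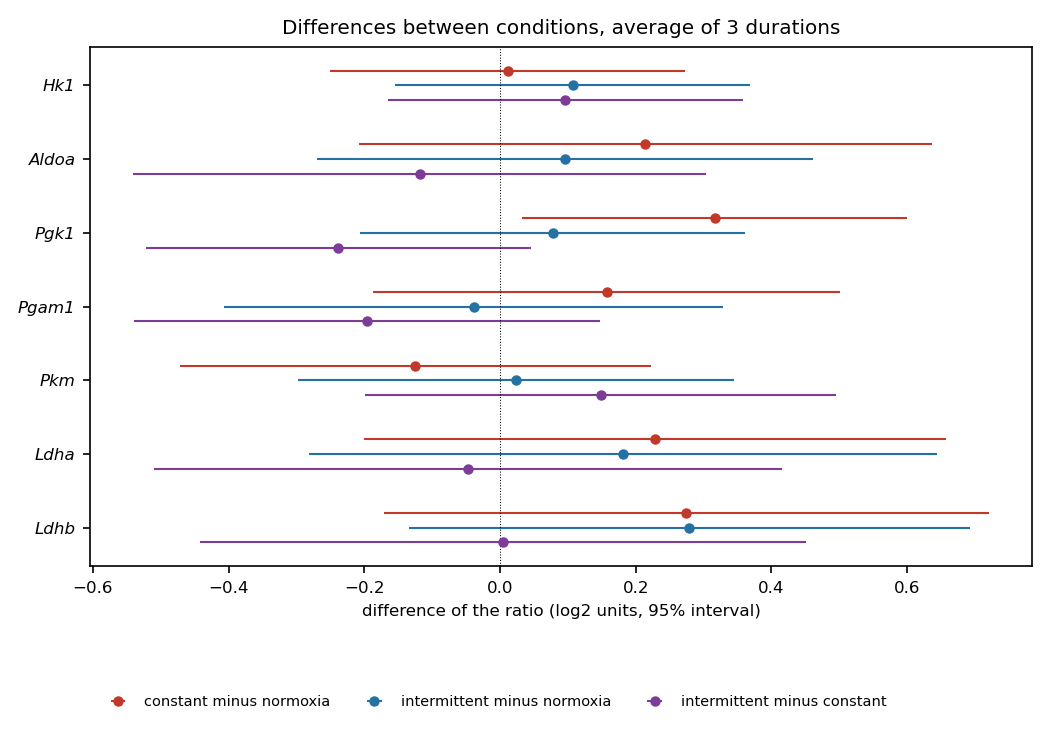
Difference of the centred log2 ratio between conditions (horizontal axis, log2 units), averaged over 3 durations, for each enzyme (vertical axis); points are limma estimates and bars 95% intervals. The interval of Pgk1 for constant hypoxia minus normoxia (0.03 to 0.60) leaves out 0, though the adjusted p is 0.647, and the other intervals in the plot span 0.

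At single durations the differences had opposite signs. At 1 week, intermittent hypoxia lay above normoxia in 6 of the 7 enzymes, with a median difference of 0.36 against a median near 0 (-0.00) over all features. Ldhb differed by 0.59 (SE 0.33), Pgk1 by 0.45 (SE 0.23), Ldha by 0.39, Aldoa by 0.36 and Hk1 by 0.31, each with both intermittent hypoxia arrays above both normoxia arrays. Those 5 of 7 compare with 17.2% of features whose arrays separated in that direction and 34.9% in either direction. Single normoxia arrays moved some of these: Pgk1 was at 0.23 without normoxia 1 week B and Hk1 at 0.18 without normoxia 1 week A. The limma adjusted p was 1.00 for each enzyme. Limma and the unmoderated test called 0.00% of features at 1 week, and without adjustment 2.90% (167) had a p under 0.05.

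At 2 weeks, Pgk1 was higher in both hypoxia regimes than in normoxia on every array. The difference was 0.74 for constant hypoxia (SE 0.23, limma adjusted p = 0.27) and 0.75 for intermittent hypoxia (SE 0.23, limma adjusted p = 0.195), set against the same 2 normoxia arrays. In constant hypoxia Aldoa and Ldhb were also above normoxia on all arrays, making 3 of 7, and Pgam1 was below it. Those 4 of 7 compare with 42.7% of features whose arrays separated in either direction, and limma called 0.0174% of features. In intermittent hypoxia only Pgk1, 1 of 5 with all values, was above normoxia on all arrays, against 17.0% (32.5% in either direction). Limma called 0.0869% of features there. All 7 differences between intermittent hypoxia and normoxia were positive at 2 weeks, from 0.06 (Hk1) to 1.15 (Ldha, SE 0.42, limma adjusted p = 0.264). Without normoxia 2 weeks B, 4 of the 7 were positive and Ldha differed by 0.71. That of Ldha also rests on the array with 1.10. It was called without both arrays of conflicting labels (limma adjusted p = 0.0357, against 0.0357 to 0.97 over the settings on centred ratios), and it was 0.22 after a running median over neighbouring probes was subtracted from each array.

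At 4 weeks the differences between intermittent hypoxia and normoxia had turned. They were negative for 6 of the 7, with a median of -0.32 where the median of all features was 0.01 and 50.9% were positive. Ldha differed by -0.995 (95% interval -1.74 to -0.25, limma adjusted p = 0.516) and Pgk1 by -0.97 (95% interval -1.46 to -0.48, limma adjusted p = 0.445). Pgk1 ranked 6 of 5751 by p in this comparison and Ldha 135. Aldoa, Pgk1 and Ldha, 3 of the 6 enzymes with all values, lay below normoxia on both arrays. Of all features, 22.3% separated in that direction and 48.5% in either, so 3 of 6 is close to the latter share. Limma called 0.00% of features and the unmoderated test 1 feature, and without adjustment 8.73% (502) had a p under 0.05. For constant hypoxia against the same normoxia arrays at 4 weeks, where limma called 0.0348%, Pgk1 differed by -0.21 (95% interval -0.70 to 0.29) and Ldha by 0.26 (95% interval -0.48 to 1.00). There 0 of the 4 enzymes with all values separated, against 28.8% of features in either direction. As deposited, all 7 of these constant hypoxia differences were negative and 6 were called, with Ldha at -0.85 (limma adjusted p = 0.0286) and Pgk1 at -1.32 (limma adjusted p = 0.00132).

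Directly compared at 4 weeks, intermittent minus constant hypoxia gave -1.26 for Ldha (SE 0.35, limma adjusted p = 0.138). The difference was -0.77 for Pgk1 (SE 0.23, limma adjusted p = 0.138) and -0.75 for Pgam1 (SE 0.25, limma adjusted p = 0.165). The arrays of these 3 enzymes separated fully, 3 of 5 with all values against 23.3% of features, and Hk1 separated the other way, against 28.5%. In either direction 51.8% of features separated. For Ldha the size depends on the constant hypoxia array. It was -1.70 (limma adjusted p = 0.00293) without constant hypoxia 4 weeks B, where it passed, and -0.81 without constant hypoxia 4 weeks A, with adjusted p from 0.00293 to 0.732 over the settings on centred ratios. As deposited, the difference turned positive for Pgk1 (0.25) and Pgam1 (0.27) and was -0.24 for Ldha, none of them called, while Hk1 (1.22) and Pkm (1.26) were called. The sign for Pgk1 and Pgam1 therefore rests on the centring.

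**Figure D3:**
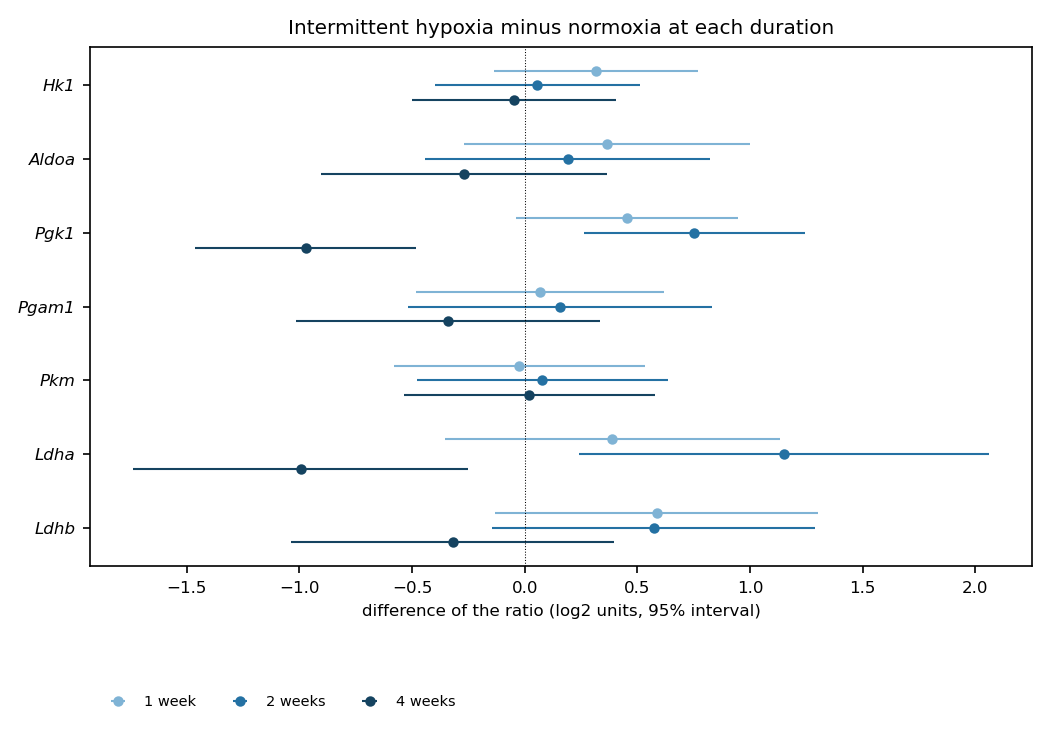
Intermittent hypoxia minus normoxia (horizontal axis, difference of the centred log2 ratio) for each enzyme (vertical axis) at 1, 2 and 4 weeks; points are limma estimates and bars 95% intervals. Pgk1 goes from 0.45 and 0.75 at 1 and 2 weeks to -0.97 at 4 weeks, and Ldha from 0.39 and 1.15 to -0.995, while Pkm stays between -0.03 and 0.08.

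The change from 1 to 4 weeks did not have the same sign in the 3 conditions. In normoxia it was positive for 6 of the 7 enzymes, with a median of 0.32 against -0.02 over all features, of which 47.3% were positive. Pgk1 changed by 1.05 (95% interval 0.56 to 1.54, limma adjusted p = 0.227) and ranked 10 of 5751 by p. Ldhb changed by 0.70 (95% interval -0.02 to 1.41), Ldha by 0.33, Hk1 by 0.32, Pgam1 and Aldoa by 0.19 each and Pkm by -0.11. Both 4-week arrays lay above both 1-week arrays for Hk1, Pgk1, Ldha and Ldhb, 4 of the 6 with all values. Of all features, 19.3% separated in that direction and 42.9% in either.

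In constant hypoxia the change was positive for 5 of the 7, with a median of 0.38 against -0.05 over all features. It was 0.75 for Aldoa, on 1 array at each time, 0.50 for Ldha, 0.43 for Pgk1, 0.38 for Ldhb and 0.37 for Pgam1, and it was -0.11 for Pkm and -0.15 for Hk1. For Pgk1 and Pgam1, 2 of 4 with all values, the arrays separated, against 19.2% of features in that direction and 40.5% in either. Single arrays moved several: Ldha was at 0.06 without constant hypoxia 4 weeks A, and without constant hypoxia 1 week A Ldhb was at 0.07 and Pgam1 at 0.09. The smallest adjusted p was 0.564, for Pgk1.

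In intermittent hypoxia the change was negative for all 7, with a median of -0.22 against -0.01 over all features, of which 49.0% were positive. Ldha changed by -1.06 (95% interval -1.80 to -0.32, limma adjusted p = 1.00) and ranked 14 of 5751 by p. Aldoa changed by -0.45, Pgk1 by -0.37, Pgam1 by -0.22, Ldhb by -0.21, Pkm by -0.07 and Hk1 by -0.04. For Aldoa, Pgk1, Pgam1 and Ldha, 4 of 7, both 4-week arrays lay below both 1-week arrays. Of all features, 18.9% separated in that direction and 39.0% in either. Up to 3 of the 7 became positive when a single array was left out (3 without intermittent hypoxia 4 weeks A).

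**Figure D4:**
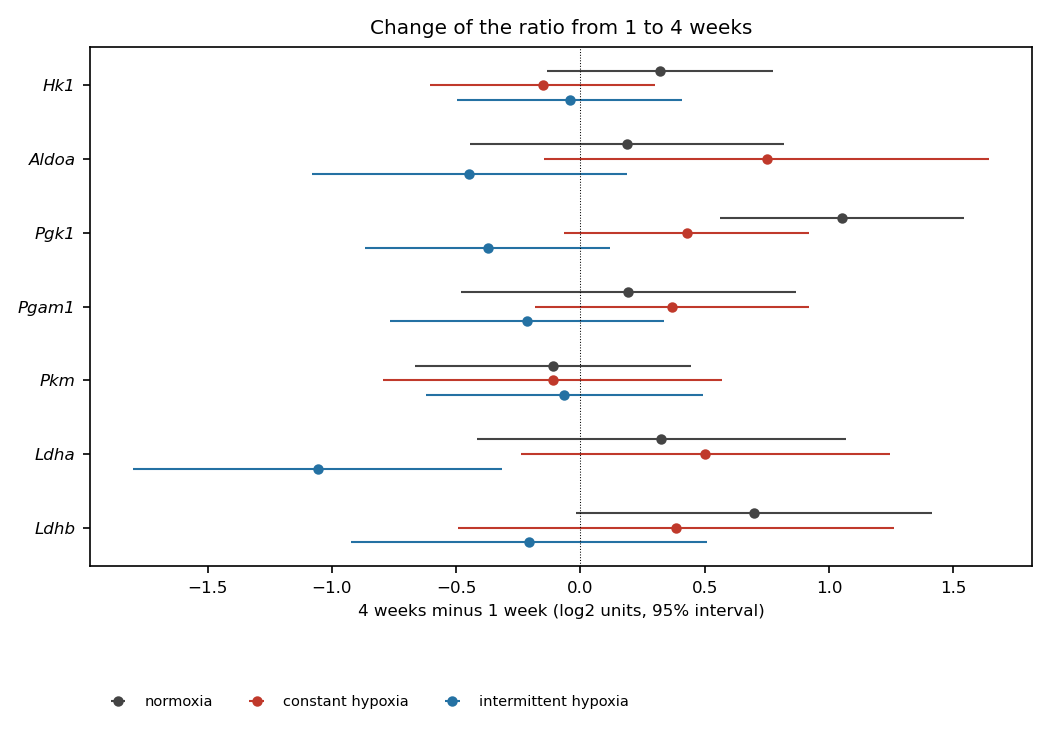
Change of the centred log2 ratio from 1 to 4 weeks (horizontal axis, log2 units) for each enzyme (vertical axis) in the 3 conditions; points are limma estimates and bars 95% intervals. Pgk1 lies at 1.05 in normoxia, 0.43 in constant hypoxia and -0.37 in intermittent hypoxia, and all 7 points of intermittent hypoxia lie below 0.

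The test of that difference, intermittent hypoxia minus normoxia in the change from 1 to 4 weeks, gave -1.43 for Pgk1 (95% interval -2.12 to -0.73, limma adjusted p = 0.33, rank 10 of 5751). It gave -1.38 for Ldha (95% interval -2.43 to -0.33, limma adjusted p = 0.497), -0.91 for Ldhb, -0.63 for Aldoa, -0.41 for Pgam1 and -0.36 for Hk1, and 0.04 for Pkm. The median of the 7 was -0.63 and that of all features 0.01. Limma and the unmoderated test called 0.00% of features. Without adjustment 8.35% (480) had a p under 0.05, among them Pgk1 and Ldha, 2 of the 7. The same difference for constant hypoxia, which shares the normoxia arrays, was -0.62 for Pgk1 (95% interval -1.32 to 0.07, and -0.40 without normoxia 1 week B), 0.18 for Ldha and -0.00 for the median of the 7.

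Sign and size held for Pgk1 in the 32 settings run on centred ratios: the difference in its change lay between -1.65 and -1.20, with limma adjusted p from 0.107 to 0.976. For Ldha, over 31 settings, it lay between -1.63 and -1.17, with adjusted p from 0.128 to 0.999. At 4 weeks the Eif2s3y ratio was 0.06 and 1.64 in normoxia, 1.13 and 0.66 in constant hypoxia, and 0.10 and -1.63 in intermittent hypoxia. Without the arrays where it was above 1, the 4-week difference between intermittent hypoxia and normoxia was -0.83 for Pgk1 and -0.81 for Ldha. Without those where it was below -1, it was -1.02 and -0.79. Markers of red cells varied too: the mean ratio of the 3 erythroid markers tested of 9 (Hbb-b1, Slc4a1 and Tfrc) ran from -0.43 to 0.15 in normoxia, from -2.10 to 0.02 in constant hypoxia and from -0.87 to 0.15 in intermittent hypoxia. The -2.10 was on constant hypoxia 4 weeks A, the array of widest spread, and the median of that condition was -0.47. Red cells were not alone in this. Lyz2, of immune cells, ran from -1.04 to 1.04 in normoxia, and Calb1, of the distal tubule, from -0.64 to 0.43 in intermittent hypoxia. The endothelial mean (Pecam1 and Cdh5) varied less in normoxia, from -0.29 to 0.34. The part of these markers in the enzymes' ratios was not tested. No marker of skeletal muscle, adipose tissue or adrenal gland could be tested.

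The rest of the pathway was thinly measured. Of 37 other genes of glycolysis, its regulators and its transporters, 15 had a probe and 5 had enough values to be tested: Bpgm, Pfkfb3, Slc2a3, Slc16a1 and Pdk1. Across the same 20 comparisons limma called 0 of their 100 values, and 9 had a p under 0.05 without adjustment. For constant hypoxia minus normoxia 3 were positive and 2 negative, with a median of 0.05. Pdk1, the kinase that keeps pyruvate out of mitochondria and a known HIF target, differed by 0.41 (SE 0.19, limma adjusted p = 0.647), and Pfkfb3, which makes the activator of phosphofructokinase, by -0.14. At 2 weeks the Pdk1 ratio was 0.64 and 1.39 in intermittent hypoxia against -0.59 and -0.81 in normoxia, a difference of 1.71 (limma adjusted p = 0.0782). The 0.64 came from the array with a conflicting label (A) and the 1.39 from an array of unusually wide spread (B). The alternative settings were not run for Pdk1. From 1 to 4 weeks, the difference in change between intermittent hypoxia and normoxia was negative for 3 of the 5, with a median of -0.11.

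Of 8 genes of gluconeogenesis, the reverse route, 4 had a probe and 2 were tested. Fbp2, the muscle form of fructose-1,6-bisphosphatase, passed in constant hypoxia, where 18.3% of all features did. Its mean ratio there was -1.42 (SE 0.23, limma adjusted p = 0.00686). It did not pass for constant hypoxia minus normoxia (-1.02, limma adjusted p = 0.647). Its lowest ratio, -3.76, was on constant hypoxia 4 weeks A, the array of widest spread. The alternative settings were not run for Fbp2. G6pc3, a glucose-6-phosphatase found in most tissues, differed by 0.09 between constant hypoxia and normoxia.

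Over arrays, the ratios of the enzymes tended to go together. Of the 21 pairs, 17 had a positive correlation, with a median of 0.27, while over all pairs of tested genes 50.1% were positive and the median was 0.00. The highest were Aldoa with Ldhb (0.73 over 16 arrays), Pgk1 with Ldhb (0.66 over 17), Pgk1 with Ldha (0.54 over 17) and Aldoa with Pgk1 (0.53 over 16). The lowest was Pgam1 with Pkm (-0.43). Ldha and Ldhb, the subunits of one enzyme, had a correlation of 0.10 over 16 arrays, with 0.82 in normoxia (6 arrays), 0.16 in constant hypoxia (5) and -0.52 in intermittent hypoxia (5). The points share arrays, dyes and position effects along the array. After the running median was subtracted 15 of the 21 were positive, with a median of 0.17, and Pgk1 with Ldhb remained at 0.67.

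**Figure D5:**
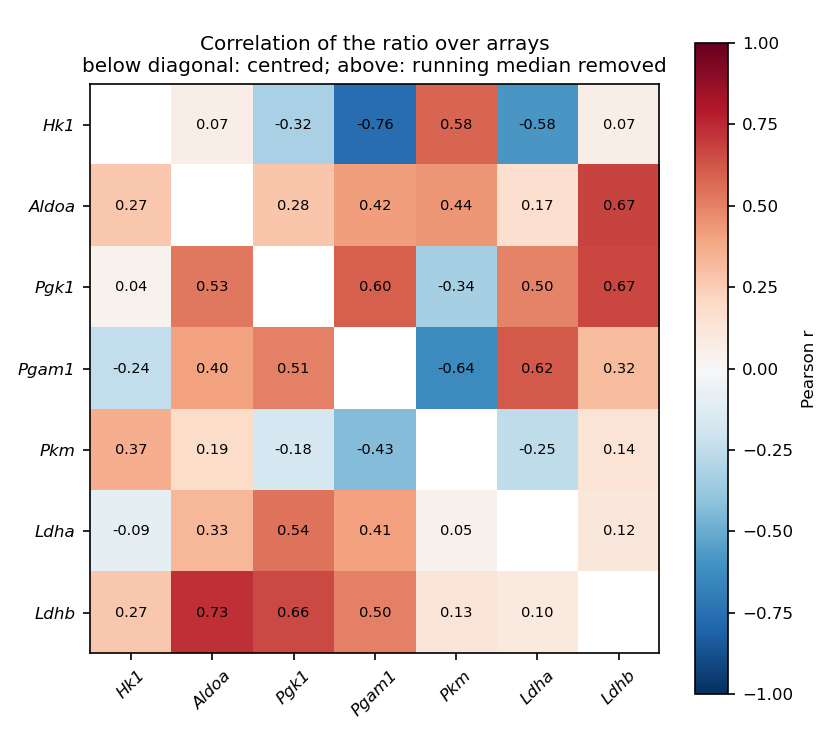
Pearson correlation of the centred log2 ratio over arrays for the 21 pairs of enzymes (both axes), below the diagonal as centred and above it after the running median was subtracted; colour and number give r. Aldoa with Ldhb is highest at 0.73, and Hk1 with Pgam1 goes from -0.24 to -0.76.

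Among the genes outside the 7, those whose ratios were most like each enzyme's were found by Pearson correlation over the arrays both had. For Pgk1 they were Fyn (0.85) and Pabpc1 (0.83), over 18 arrays and 4102 genes compared. For Ldha they were Hspa9 (0.93) and Mrpl12 (0.90), over 17 arrays, and for Ldhb Rpl7a (0.89), whose nearest probe is 48 places away, and AW551984 (0.88). For Aldoa they were Tmem167 (0.90) and Cct7 (0.84), for Pgam1 Sfxn1 and Myl12b (0.81 each), for Pkm S100a13 (0.84) and Lrrc27 (0.82), and for Hk1 Pls3 (0.80) and Zfp277 (0.76), whose nearest probe is 10 places away. After the running median was subtracted, Fyn stayed at 0.78 with Pgk1, while with Hk1 Pls3 was at 0.23 and Zfp277 at 0.41. Each is the highest of the many values compared, given as a description.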

How the data were processed

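The files deposited by the authors hold a log2 ratio for each probe on 18 two-channel cDNA arrays. Per the labels' protocols, RNA was extracted in Trizol and 60 ug per channel was labelled with Cy5 or Cy3. How background was corrected, how ratios were normalized and which channel is the numerator is not stated in the labels or file headers. Base 2 was inferred from the share of whole-number ratios among 500 deposited values per array (denominator up to 600, relative tolerance 3e-09). With base 2 that share was 21.2% to 46.2% on the constant hypoxia arrays and 66.4% to 76.6% on the others. Base e gave 1.2% at most and base 10 gave 1.6%. No intensities were used, so the depth behind a value is unknown and the number of arrays limits the precision.

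Arrays were grouped by title. Of 16128 probes, 9604 had 1 symbol, 213 several and 6311 none. The 6518 probes with values on at least 15 arrays and in every group were kept, probes of a symbol were averaged, and array medians were set to 0 over the 5751 resulting features. Limma 3.58.1 in R 4.3.3 fitted 9 group means (eBayes), with two-sided p values adjusted by Benjamini-Hochberg over all features (threshold 0.05); the fit was tested on simulated data. P values measure the spread between arrays of different animals. Missing values were left out of the fit. Alternatives changed 1 choice at a time; 3 were added after seeing the data. The enzymes and gene lists were chosen with earlier results of these data known. All 7 enzymes were named; of other pathway genes, those called or among the 4 with the smallest p for constant hypoxia minus normoxia; and the 2 genes most like each enzyme. The array letters were checked for pairing: the deviations of A arrays of 36 pairs of groups correlated at -0.34 to 0.44 (median 0.01, 8 above 0.1), so they were not treated as pairs.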

Additional observations from a re-analysis of the deposited data

Results flagged for a closer look

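One value stood away from its condition. Aldoa on normoxia 2 weeks B had a centred log2 ratio of -0.78, while the other 5 normoxia arrays lay between -0.02 and 0.37. The gap to its neighbour was 0.66 of the condition's range, above Dixon's critical value of 0.625 for 6 samples. These arrays come from 3 durations, and chance alone flags about 1 in 20 such groups. The rule was applied to each of the 7 enzymes in each of the 3 conditions, so 1 flag can be chance.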

How the results depend on the processing

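Of 35 alternatives to the fit, 32 were planned and 3 were added after seeing the data (without the arrays of widest spread, and without arrays of high or of low Eif2s3y ratio). The planned ones count the single fit with probes kept separate 3 times, as itself and once for each Pkm probe. The setting that changed most was the deposited ratio without centring, where 42 of 140 enzyme values had the opposite sign and 41 were called. There the mean ratio in constant hypoxia reversed to -0.66 for Hk1, -0.53 for Aldoa, -0.64 for Pgk1, -0.63 for Pgam1, -0.75 for Pkm and -0.48 for Ldha, and 7 enzymes were called. Constant hypoxia minus normoxia reversed to -0.76 for Hk1, -0.52 for Aldoa, -0.45 for Pgk1, -0.63 for Pgam1 and -0.54 for Ldha, with 6 called. Intermittent minus constant hypoxia reversed to 0.59 for Aldoa, 0.51 for Pgk1, 0.57 for Pgam1 and 0.68 for Ldha, with 7 called. At 1 week, constant hypoxia minus normoxia reversed to -0.74 for Hk1, -0.55 for Pgk1, -0.73 for Pgam1 and -0.88 for Ldha, with 6 called, and intermittent minus constant hypoxia to 0.90 for Pgam1, with 7 called. At 4 weeks, constant hypoxia minus normoxia reversed to -0.74 for Pgam1 and -0.85 for Ldha, with 6 called, and intermittent minus constant hypoxia, where 4 changed sign, called 2. This follows from the array medians, which centring sets to 0.

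Leaving out 1 array at a time, the number of enzymes called went from 0 to 1 for the normoxia mean (Ldhb, without constant hypoxia 4 weeks A or B, intermittent hypoxia 2 weeks A or B, or normoxia 2 weeks A), for the constant hypoxia mean and for intermittent minus constant hypoxia at 4 weeks (Ldha, both without constant hypoxia 4 weeks B). Without both arrays of conflicting labels it was 1 for the normoxia mean and 1 for intermittent hypoxia minus normoxia at 2 weeks, and without both arrays of widest spread 1 for the normoxia mean. With the running median removed, 32 of 140 enzyme values changed sign and 0 were called. With the array letter as a replicate block, 1 value changed sign, 0 were called, the smallest adjusted p was 0.0762 and the Pgk1 difference in change between intermittent hypoxia and normoxia was -1.43; letters did not pair arrays. The 95% intervals reached 0.45 to 0.90 on either side of a change from 1 to 4 weeks and 0.64 to 1.13 for its difference between conditions. These intervals are not adjusted for the number of features. Differences larger than these, such as the -1.43 of Pgk1, did not pass after adjustment either, so they are not the limit of detection.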
